A study of Mus musculus with 6 samples.

Results

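To ask how IL-10 changed the genes by which T cells enter, stay in and leave lymphoid tissue, the transcripts of 8 genes were followed in CD4 derived double negative T cells (cDNT): the chemokine receptors Ccr7 and Cxcr4, the oxysterol receptor Gpr183, the sphingosine 1-phosphate (S1P) receptors S1pr1 and S1pr4, the transcription factors Klf2 and Klf3, and the membrane protein Cd69. They were chosen by name, for their known roles and not by a rule on measured values, out of 29393 genes in the count table. Earlier results of these data were known when they were chosen. All 8 were among the 14916 genes tested. Of the 8, Cxcr4, Gpr183 and Ccr7 fell W/ IL-10, to 0.548, 0.564 and 0.646 of the level W/O IL-10, and none of the other 5 passed the test.

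T cells enter lymph nodes from the blood with the help of CCR7, which binds CCL19 and CCL21 made in the T cell zone. They leave again along a gradient of S1P, which is high in blood and lymph and low in tissue, and which they sense mainly through S1PR1. KLF2 drives transcription of S1pr1 in resting T cells, FOXO1 lies upstream of KLF2, and CD69, induced soon after activation, binds S1PR1 and takes it off the cell surface.

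cDNT are mouse T cells that lack surface CD4 and CD8. The methods describe their conversion from CD4+CD25- T cells, which were cultured together with mature dendritic cells under IL-2 and then sorted. The sample labels call them double negative T cells from the spleen of adult C57BL/6 mice. Sorted cells were kept for 24 h with IL-10 at 50 ng/ml (W/ IL-10, 3 libraries) or without IL-10 (W/O IL-10, 3 libraries), and RNA was sequenced in bulk. The study's methods add anti-CD3/CD28 antibodies to the IL-10 culture, the labels do not mention them, and neither says whether the W/O IL-10 cells received them. IL-10 and any antibody given only with it therefore cannot be told apart in this comparison. All cells came from 1 kind of culture on 1 strain, so both groups carry what the conversion leaves behind, and nothing states that the 3 libraries of a group came from separate cultures or animals. The p-values then measure only the spread between these libraries, which may be technical.

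The libraries held 21619420 to 23967088 counts. A total of 3 counts, taken as the floor of detection, corresponded to 0.123 to 0.146 CPM (a gene's counts relative to the scaled library total), and all 8 genes lay far above it, with 217 or more counts in every library. T cell transcripts were present throughout, with the 10 markers of that list summing to 3251 to 3731 CPM W/O IL-10 and 4139 to 4273 CPM W/ IL-10. Among the 10, Cd5 fell in edgeR, by less than a fold of 1.5 (log2 fold change -0.47, adjusted p 0.0467). Without overlap of the groups, 5 lay higher W/ IL-10 and 1 lower, against 11.3% and 11.2% of all tested genes. Cd4 was at 0.351 to 1.55 CPM. Cd8a, by contrast, was at 95.8 to 119 CPM W/O IL-10 and 139 to 169 CPM W/ IL-10, and Cd8b1 at 32.6 to 44.5 and 57.0 to 66.6 CPM, so at the RNA level the libraries went against the absence of CD8 in the cell type label. Both coreceptor genes were higher W/ IL-10, Cd8b1 by a fold of 1.59 (adjusted p 0.0306) and Cd8a by 1.48 (0.0369), and their part in the other results was not tested. Markers of cells that might accompany the sort were also detected. The 8 B cell markers summed to 219 to 422 CPM W/O IL-10 and 182 to 294 CPM W/ IL-10, and the 11 dendritic cell markers in the table to 121 to 159 and 100.3 to 129 CPM. Both sums were lower on average W/ IL-10 and are set beside the genes that fell. In bulk RNA, fewer cells of a type and less RNA per cell cannot be told apart.

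Genes that moved together may be compared in the DNA ahead of their starts. Of the 8 genes, 5 had a RefSeq promoter (GRCm38.p6), and 3 are printed 5′ to 3′ on the strand of the gene, up to the annotated start: the 2 genes with the smallest adjusted p among the 8, Cxcr4 (chr1:128592300-128592549, minus strand) and Gpr183 (chr14:121965196-121965443, minus strand), and for contrast Klf2 (chr8:72318812-72319032, plus strand), which did not pass the test. Capitals mark CACCC, read on either strand, the core of the KLF binding motif.
Cxcr4: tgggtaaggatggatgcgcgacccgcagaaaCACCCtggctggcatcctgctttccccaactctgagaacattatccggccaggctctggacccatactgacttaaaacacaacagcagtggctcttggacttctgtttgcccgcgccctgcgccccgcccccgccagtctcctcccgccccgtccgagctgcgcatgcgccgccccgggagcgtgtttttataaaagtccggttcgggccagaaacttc
Gpr183: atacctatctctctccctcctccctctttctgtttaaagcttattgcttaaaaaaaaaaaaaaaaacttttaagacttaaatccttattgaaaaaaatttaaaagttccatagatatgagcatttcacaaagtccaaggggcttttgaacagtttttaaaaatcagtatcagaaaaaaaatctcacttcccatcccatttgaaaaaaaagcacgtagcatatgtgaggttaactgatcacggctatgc
Klf2: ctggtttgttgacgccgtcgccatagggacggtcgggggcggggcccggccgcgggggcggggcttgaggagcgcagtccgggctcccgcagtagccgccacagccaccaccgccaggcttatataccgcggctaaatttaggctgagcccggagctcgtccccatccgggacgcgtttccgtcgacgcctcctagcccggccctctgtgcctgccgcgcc
Both strands were searched for CACCC, for the FOXO motif GTAAACA and for the STAT motif TTCNNNGAA, none of which overlapped another in these stretches. Cxcr4 held 1 CACCC, Gpr183 and Klf2 held none, and neither of the other motifs occurred in any of the 3. Of the promoters not printed, S1pr4 held 1 CACCC and Klf3 held 2, with neither of the other motifs, and these genes did not pass the test either. The stretches of Klf2 and Klf3 were shorter, at 221 and 117 bases. Among all 32851 RefSeq promoters, 52.0% held CACCC within 250 bases of the start, 3.17% held GTAAACA and 7.02% held TTCNNNGAA. The 2 genes that moved together thus shared none of these motifs in this window. Their base composition also differed, with a GC content of 61.2% for Cxcr4 and 31.9% for Gpr183, against 71.5% for Klf2.

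Chemokine receptors were examined first. Cxcr4 (ENSMUSG00000045382, chr1:128588199-128592293 in GRCm38) encodes the receptor for CXCL12, which draws lymphocytes to bone marrow and across the high endothelial venules of lymph nodes. Its level was 49.2, 52.4 and 57.4 CPM in W/O IL-10 replicates 1 to 3 and 28.8, 28.6 and 29.7 CPM in W/ IL-10 replicates 1 to 3. Every library W/ IL-10 lay below every library W/O IL-10, and the 3 libraries W/ IL-10 were close to each other. The mean went from 53.0 ± 4.14 CPM to 29.0 ± 0.564 CPM (SD, n = 3). On the log2 scale this was a change of -0.87 (SE 0.09, 95% confidence interval -1.06 to -0.67), with an adjusted p of 0.00271 in the quasi-likelihood test of edgeR with Benjamini-Hochberg adjustment over all tested genes. By p-value Cxcr4 ranked 21 of the 14916. The call held whichever library was left out, with log2 fold changes of -0.93 to -0.82 and adjusted p-values of 0.000116 to 0.0332.

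Ccr7 (ENSMUSG00000037944, chr11:99144196-99155077) encodes the receptor that guides naive T cells and dendritic cells into the T cell zone. It stood at 83.6, 107 and 111 CPM in the 3 libraries W/O IL-10 and at 59.6, 72.1 and 62.6 CPM in those W/ IL-10. The groups did not overlap, but W/O IL-10 replicate 1 lay nearer to the highest library W/ IL-10 than to the other libraries of its own group. Ccr7 fell from 100.3 ± 14.6 to 64.8 ± 6.50 CPM (SD, n = 3), a change of -0.63 on the log2 scale (SE 0.12, interval -0.90 to -0.36), with an adjusted p of 0.0364. This call was the least secure of the 3. It was kept when W/O IL-10 replicate 1 was left out (adjusted p 0.000648), and lost without W/O IL-10 replicate 2 (0.125) or 3 (0.0848) and without W/ IL-10 replicate 1 (0.157), 2 (0.0709) or 3 (0.195), while the log2 fold change stayed between -0.76 and -0.57. When GC content and exon length were corrected for, the adjusted p came to 0.0505.

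Gpr183 (ENSMUSG00000051212, chr14:121952551-121965195), also known as EBI2, encodes the receptor for 7α,25-dihydroxycholesterol, which positions B cells, dendritic cells and activated T cells at the borders of follicles. It was read at 105, 101 and 121 CPM W/O IL-10 and at 59.4, 65.7 and 59.5 CPM W/ IL-10. The groups were well separated, with a gap between them wider than the range of either. Gpr183 fell from 109 ± 10.8 to 61.5 ± 3.60 CPM (SD, n = 3), which is a change of -0.83 on the log2 scale (SE 0.09, interval -1.03 to -0.62) and an adjusted p of 0.00383, rank 31 of all tested genes. Without W/ IL-10 replicate 3 the adjusted p was 0.0524 at a log2 fold change of -0.80, and without any other single library the call was kept.

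These 3 of the 8 genes passed at a fold change of at least 1.5 and an adjusted p under 0.05, all in the direction of a decrease, where 1.45% of all tested genes passed in either direction, 0.677% as decreases and 0.778% as increases. At an adjusted p under 0.05 and any fold change the 8 genes gave the same 3, against 2.19% of all tested genes, of which 0.979% were lower and 1.21% higher W/ IL-10. None passed as an increase in edgeR, DESeq2 or limma-voom. Because the 8 genes were chosen with earlier results known, the shares over all tested genes are set beside them as a description only. At an unadjusted p under 0.05, edgeR counted 4 of the 8, the fourth being Cd69, beside 14.7% of all tested genes. In the plot of the 8 genes by library, the decreases of Cxcr4 and Gpr183 stand apart from the scatter within groups, and the S1P receptors and KLF factors do not separate.

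**Figure D1:**
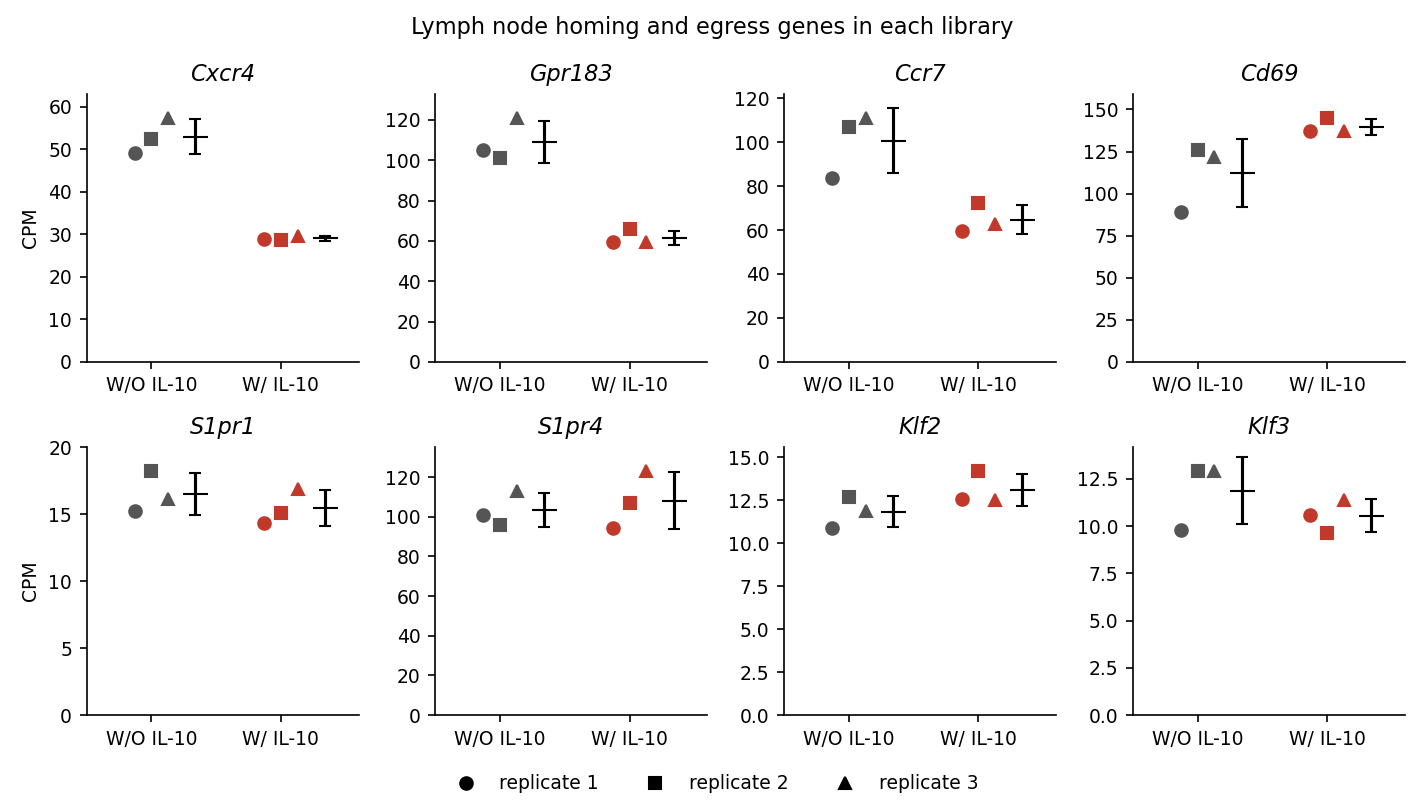
Level of each of the 8 genes in CPM (vertical axes, from 0, a scale of its own for each gene) in the 3 libraries W/O IL-10 (gray) and the 3 W/ IL-10 (red). Symbols mark the replicate numbers, and the black bar beside each group gives the mean and SD. Cxcr4 lies at 49.2 to 57.4 CPM W/O IL-10 and at 28.6 to 29.7 CPM W/ IL-10, whereas the groups of S1pr1, S1pr4, Klf2 and Klf3 overlap.

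S1P receptors were considered next. S1pr1 (ENSMUSG00000045092, chr3:115710433-115715072), the receptor that carries T cells out of lymph nodes and thymus, was at 15.2, 18.2 and 16.1 CPM W/O IL-10 and at 14.3, 15.1 and 16.9 CPM W/ IL-10. The ranges overlapped. The ratio of the groups was 0.937 with an interval of 0.779 to 1.13 (adjusted p 0.763), so a decrease of the size seen for Cxcr4 lies outside the interval of S1pr1. S1pr4 (ENSMUSG00000044199, chr10:81497747-81500132), a receptor largely restricted to blood cells, was at 101, 96.1 and 113 CPM W/O IL-10 and at 94.4, 107 and 123 CPM W/ IL-10. Its groups overlapped too, with the highest and the lowest library both W/ IL-10. The ratio was 1.04 (interval 0.884 to 1.23, adjusted p 0.831), and its log2 fold change of 0.06 turned to -0.04 without W/ IL-10 replicate 3. Of its 50-base stretches, 1.24% also occur in transcripts of another gene.

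Among paralogs of these receptors, S1pr2, which opposes migration toward S1P in many cells, was at 23.0 ± 1.68 and 22.5 ± 0.797 CPM (SD, n = 3), with a log2 ratio of -0.03 (adjusted p 0.906). The sign of that value turned under a correction for GC content and length, and it was 0.05 there. S1pr5, which serves the egress of NK cells, was at or below the floor of detection, with at most 0.0876 CPM in a library. S1pr3 was at 6.33, 5.34 and 5.08 CPM W/O IL-10 and at 4.37, 5.02 and 4.16 CPM W/ IL-10. Its groups did not overlap, as in 22.6% of all tested genes, and it did not pass in edgeR (log2 fold change -0.31, adjusted p 0.457). In S1pr1, S1pr2, S1pr3 and S1pr4 the data thus give a level in each library and no difference that passed the test.

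KLF factors came next in order. Klf2 (ENSMUSG00000055148, chr8:72319033-72321656), which keeps T cells quiescent and drives their egress program, was at 10.9, 12.7 and 11.9 CPM W/O IL-10 and at 12.6, 14.2 and 12.5 CPM W/ IL-10. The groups overlapped only by W/O IL-10 replicate 2. The ratio was 1.11 (interval 0.920 to 1.33, adjusted p 0.611). Klf3 (ENSMUSG00000029178, chr5:64803388-64832901), mostly a repressor that binds the same CACCC element, was at 9.81, 12.9 and 12.9 CPM W/O IL-10 and at 10.6, 9.64 and 11.4 CPM W/ IL-10. W/O IL-10 replicate 1 lay within the range of the libraries W/ IL-10 and the other 2 above it, and the ratio was 0.889 (interval 0.706 to 1.12, adjusted p 0.639). With 217 to 312 counts, Klf3 was the most shallowly counted of the 8, and 3.59% of its exon bases lie under a gene on the opposite strand, whose reads can be told apart only if counting used strand.

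Some other members of the KLF family were read in the same way. Klf4, Klf6, Klf7, Klf10 and Klf13 had log2 fold changes of -0.52, 0.21, 0.28, -0.07 and 0.16, with adjusted p-values of 0.275, 0.355, 0.396, 0.797 and 0.541. Klf6 and Klf13, the most abundant of them in CPM, were at 208 ± 25.2 and 167 ± 12.9 CPM W/O IL-10 and at 242 ± 8.16 and 186 ± 23.5 CPM W/ IL-10 (SD, n = 3). No KLF gene passed the test in edgeR, DESeq2 or limma-voom, and 2 of the 13 tested had an unadjusted p under 0.05, a share near the 14.7% of all tested genes. The log2 fold changes of the 13 ran from -0.71 (Klf1, 3 to 36 counts in a library) to 0.55 (Klf12, 7 to 18 counts), with a median of -0.07.

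Cd69 (ENSMUSG00000030156, chr6:129267325-129275436), the early activation antigen that retains lymphocytes in tissue, was at 89.1, 126 and 122 CPM W/O IL-10 and at 137, 145 and 137 CPM W/ IL-10. All libraries W/ IL-10 lay above all libraries W/O IL-10, with W/O IL-10 replicate 1 far below the rest. The means were 112 ± 20.3 and 139.8 ± 4.45 CPM (SD, n = 3), which gave a ratio of 1.24 (interval 1.02 to 1.51) with an unadjusted p of 0.0318 and an adjusted p of 0.277, which did not pass. The value depended on the processing. It went from 0.31 on the log2 scale to 0.01 with a correction for GC content and length (the exons of Cd69 have a GC content of 38.5%, the lowest of the 8), and the adjusted p became 0.0456 when no filter on low counts was applied. Cd69 brought the genes whose groups did not overlap to 4 of 8, against 22.6% of all tested genes. W/O IL-10 replicate 1 was the lowest library of its group for 6 of the 8 genes.

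**Figure D2:**
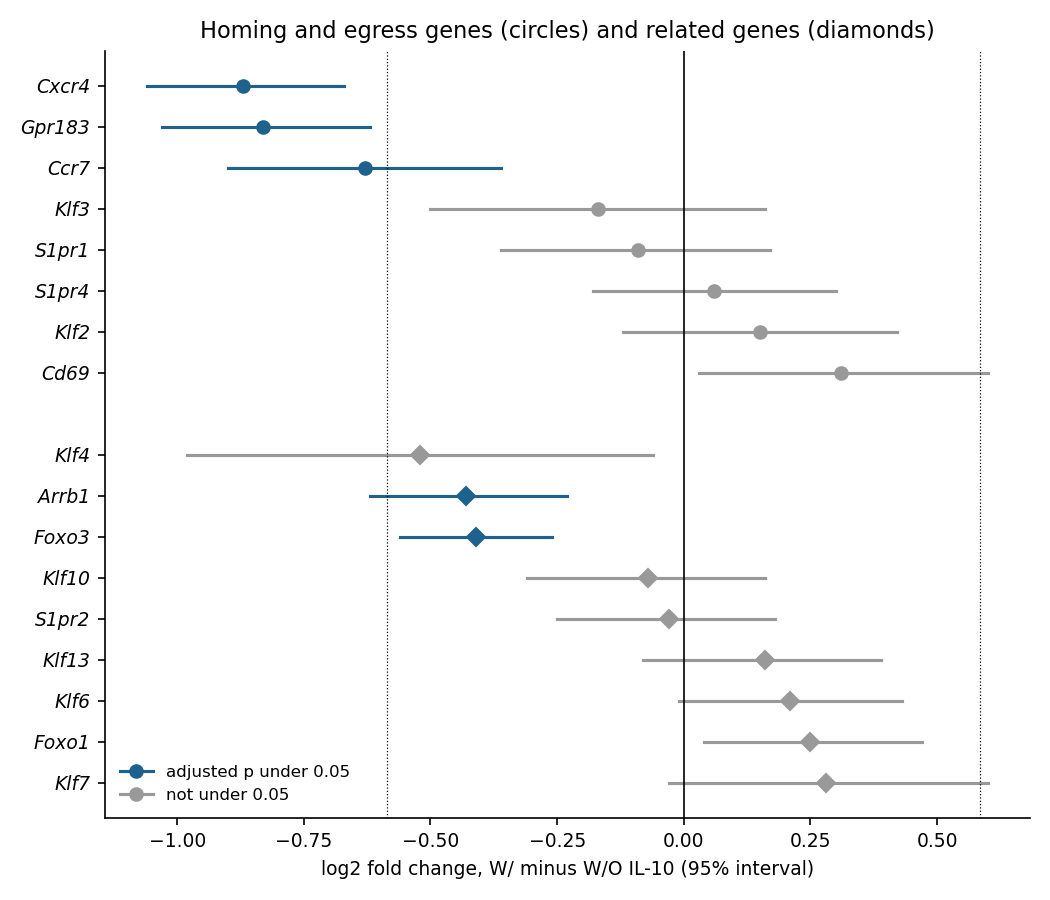
Log2 fold change, W/ minus W/O IL-10 (horizontal axis), with its 95% interval, for the 8 genes (circles) and for related genes named here (diamonds). Blue marks an adjusted p under 0.05, the solid line no change and the dotted lines a fold change of 1.5. The intervals of Cxcr4 and Gpr183 lie wholly beyond the lower dotted line, and that of Ccr7 reaches from -0.90 to -0.36.

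Per kilobase of annotated exon, which allows levels to be compared between genes, the order W/O IL-10 was Ccr7 (50.7 CPM per kb), S1pr4 (43.3), Gpr183 (37.8), Cxcr4 (29.3), Cd69 (17.3), Klf2 (6.40), S1pr1 (5.41) and Klf3 (1.06). The ranges over libraries overlapped between Ccr7 and S1pr4, between S1pr4 and Gpr183 and between Klf2 and S1pr1, and no other neighbors in that order overlapped. W/ IL-10 the order was S1pr4 (45.3 CPM per kb), Ccr7 (32.7), Cd69 (21.5), Gpr183 (21.3), Cxcr4 (16.1), Klf2 (7.09), S1pr1 (5.07) and Klf3 (0.939). There, only Cd69 and Gpr183 overlapped. Exon length here is the union over annotated transcripts, which is longest for Klf3 (11243 bases) and Cd69 (6509 bases), so the levels of genes with long or alternative ends are understated where shorter forms are used.

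Around the 8 genes, 8 lists of the pathway held 104 distinct genes, of which 86 were tested. Without the 8 genes themselves, 78 were tested. In edgeR none of these passed as a decrease at the fold change of 1.5, and 2 fell at any fold change. In either direction, 23 of the 78 had an unadjusted p under 0.05 (14.7% over all tested genes), and the median log2 fold change of these 78 was 0.02, beside 0.01 over all tested genes. Of the 5 list genes that fell at an adjusted p under 0.05, 3 were Cxcr4, Gpr183 and Ccr7.

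Foxo3 and Arrb1 were the 2 that fell by less than the fold change of 1.5. Foxo3, a forkhead factor related to FOXO1, was at 75.2, 78.8 and 77.8 CPM W/O IL-10 and at 56.9, 57.3 and 59.9 CPM W/ IL-10 (log2 fold change -0.41, SE 0.07, adjusted p 0.0222). Arrb1, which encodes β-arrestin 1, an adaptor in the desensitization of G protein-coupled receptors, was at 94.0, 80.8 and 79.6 CPM W/O IL-10 and at 63.8, 59.8 and 65.7 CPM W/ IL-10 (log2 fold change -0.43, SE 0.09, adjusted p 0.0447). Neither gene's groups overlapped, yet each call was kept only when W/O IL-10 replicate 1 was the library left out. Leaving out any other library, the adjusted p of Foxo3 was 0.0648 (W/O IL-10 replicate 3) to 0.11 (W/ IL-10 replicate 3), and that of Arrb1 0.065 (W/O IL-10 replicate 3) to 0.178 (W/ IL-10 replicate 3). With all 6 libraries, Arrb1 also missed the threshold in limma-voom (0.0501) and with the replicate number as a block (0.0619). Foxo1 itself was at 73.6 ± 9.15 CPM W/O IL-10 and 87.8 ± 3.31 CPM W/ IL-10 (SD, n = 3) and did not pass, at a log2 ratio of 0.25 (adjusted p 0.263).

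By list, the S1P axis (receptors, kinases, lyase, phosphatases and transporters) had 11 of 15 genes tested. None passed in edgeR or limma-voom, 1 passed in DESeq2, and 1 had an unadjusted p under 0.05. Its median log2 fold change was -0.09, with single genes from -0.94 to 0.08. The homing chemokine list had 3 of 10 genes tested, and Cxcr4 and Ccr7 passed, with Cxcr5 at -0.73 (adjusted p 0.129). In the oxysterol list, only Gpr183 was tested. The list of FOXO and KLF2 genes had 12 tested, of which Ccr7 and Foxo3 fell, with a median of -0.05. At an unadjusted p under 0.05 it had 7 in either direction, beside 14.7% of all tested genes.

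Next came the machinery that these receptors share. Of 20 genes of receptor signaling and desensitization, Arrb1 alone had an adjusted p under 0.05, and the median was 0.02 (4 at an unadjusted p under 0.05, and 2 past the adjusted threshold in DESeq2, 0 in limma-voom). Of 18 genes of the migration machinery, which links the receptors to integrins and the actin skeleton, none passed in edgeR, DESeq2 or limma-voom, with 5 at an unadjusted p under 0.05, a range of -0.38 to 0.32 and a median of 0.08. The tissue retention list, in which Cd69 stands with integrins and transcription factors of resident T cells, had 11 genes tested and none past the threshold in edgeR, against 2 in DESeq2, 1 in limma-voom and 5 at an unadjusted p under 0.05. Its median was 0.14 and its range -0.68 to 0.51.

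**Figure D3:**
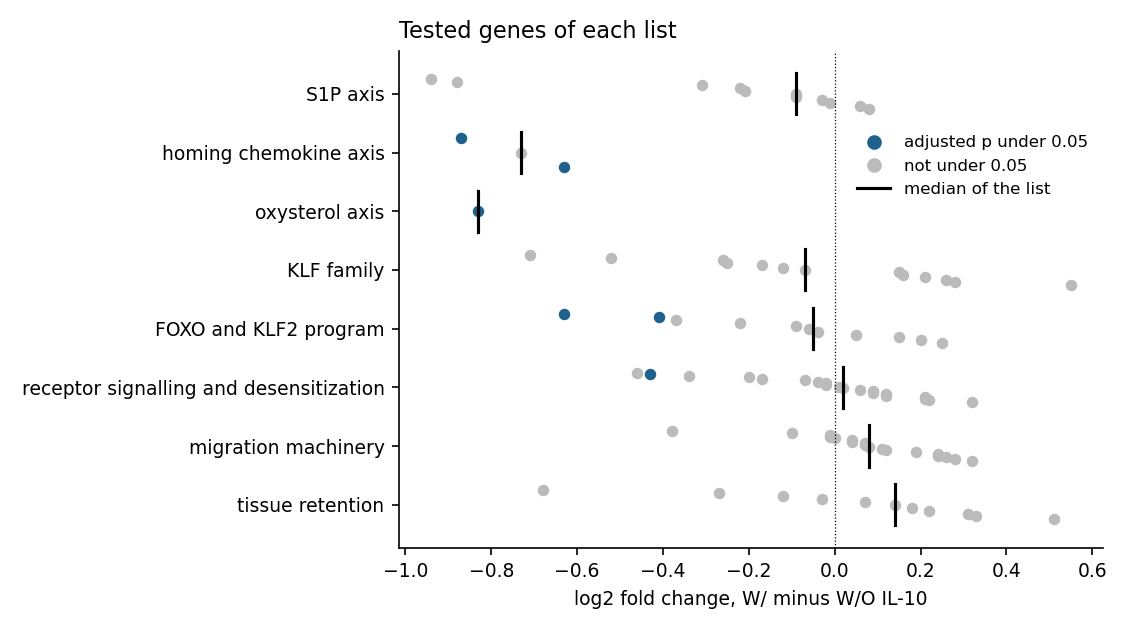
Log2 fold change, W/ minus W/O IL-10 (horizontal axis), of the tested genes of the 8 pathway lists (rows; a gene can stand in more than 1 list, and 1 gene is not drawn). Blue points had an adjusted p under 0.05, gray points did not, and the black bars are the medians, which run from -0.83 for the oxysterol list (1 gene tested) to 0.14 for tissue retention. Points are spread vertically within a row only to separate them.

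B cells and mature dendritic cells also express Ccr7, Cxcr4 and Gpr183, so their markers are given for the same libraries. The B cell markers summed to 219, 422 and 293 CPM in W/O IL-10 replicates 1 to 3 and to 182, 294 and 190.5 CPM in W/ IL-10 replicates 1 to 3. The groups overlapped, all 8 markers were detected and tested, none passed in edgeR, DESeq2 or limma-voom (1 at an unadjusted p under 0.05), and their median log2 fold change was -0.48. W/O IL-10 replicate 1, with a B cell sum of 219 CPM, had 49.2 CPM of Cxcr4, 105 of Gpr183 and 83.6 of Ccr7. W/ IL-10 replicate 2, with a sum of 294 CPM, had 28.6, 65.7 and 72.1 CPM. These libraries have the smallest sum W/O IL-10 and the largest W/ IL-10, and are given as a description only.

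With the mean log2 CPM of the B cell markers as a covariate, an alternative added after seeing the data, the log2 fold changes were -0.85 for Cxcr4 (adjusted p 0.00652), -0.81 for Gpr183 (0.0089) and -0.52 for Ccr7 (0.036), the last of which is below the fold change of 1.5. Within each group, the library with the smallest B cell sum also had the smallest Ccr7. For Cxcr4 this held W/O IL-10. In W/ IL-10 replicates 1 to 3 Cxcr4 lay close together, at 28.8, 28.6 and 29.7 CPM, and was lowest at the largest B cell sum. For Gpr183 it held W/ IL-10 (59.4, 65.7 and 59.5 CPM). Among the libraries W/O IL-10 (105, 101 and 121 CPM), Gpr183 was lowest at the largest sum. These orders are given as a description only. The part of B cell RNA in the decreases was not tested.

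**Figure D4:**
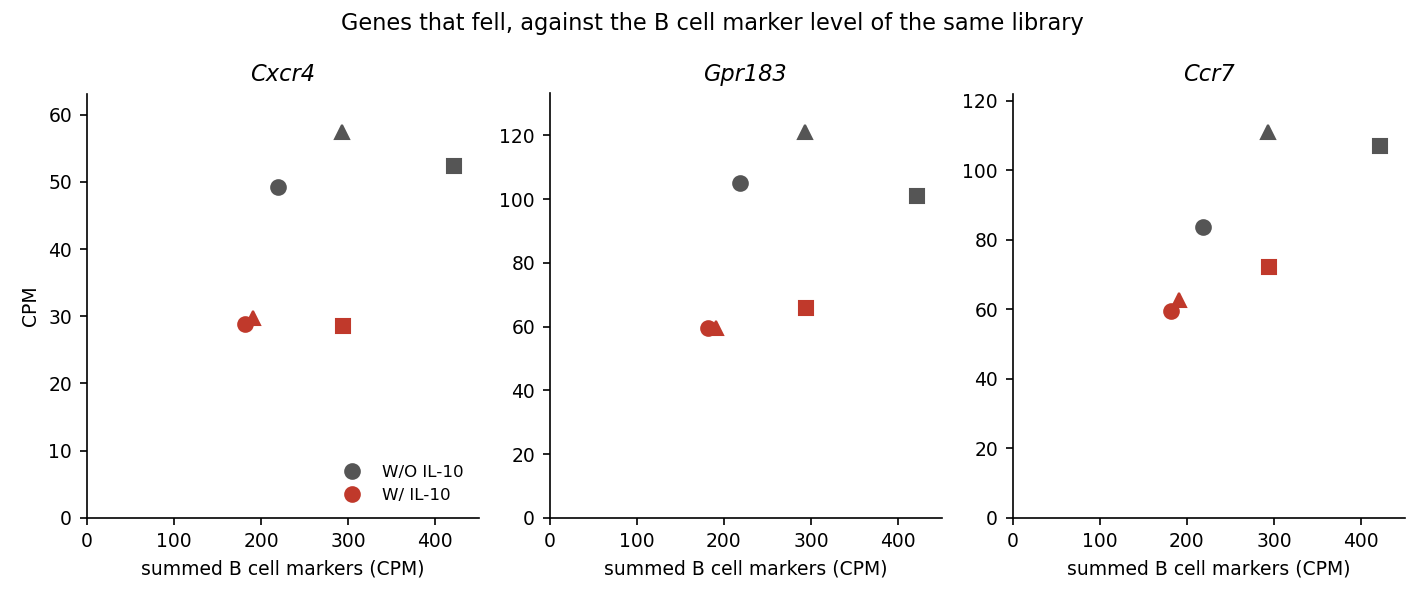
Level of Cxcr4, Gpr183 and Ccr7 in CPM (vertical axes, from 0) against the summed CPM of the 8 B cell markers in the same library (horizontal axis), W/O IL-10 in gray and W/ IL-10 in red, with the same symbols for replicate numbers as in the plot by library (circle 1, square 2, triangle 3). B cell sums run from 219 to 422 CPM W/O IL-10 and from 182 to 294 CPM W/ IL-10. Cxcr4 lies at 49.2 to 57.4 CPM W/O IL-10 and at 28.6 to 29.7 CPM W/ IL-10.

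Dendritic cell markers summed to 121, 159 and 127 CPM W/O IL-10 and to 100.3, 129 and 105 CPM W/ IL-10. Large parts of the sum were H2-Ab1 (means of 55.3 CPM W/O IL-10 and 37.1 CPM W/ IL-10, not passing the test) and Itgax. These 2 moved in opposite directions, so the sum mixes unlike changes. Within each group, H2-Ab1 had the same order of libraries as the B cell sum. It was at 36.2, 76.6 and 53.2 CPM W/O IL-10 and at 29.2, 52.4 and 29.8 CPM W/ IL-10. Of the 12 in the list, 7 were tested. Clec9a and Siglech were under 3 counts in every library, and Flt3 and Ccl17 had at most 7 and 18 counts. Itgax, which T cells can also express, rose (20.4 ± 2.06 to 43.2 ± 5.36 CPM, adjusted p 0.00383). Ccl22, a chemokine of mature dendritic cells that brings in CCR4-bearing T cells, was at 21.0, 9.51 and 5.90 CPM W/O IL-10 and at 3.79, 1.78 and 0.263 CPM W/ IL-10, groups that did not overlap (adjusted p 0.102). The groups of Cd83 (26.0, 38.9 and 31.4 CPM W/O IL-10 and 14.2, 23.3 and 13.2 CPM W/ IL-10) did not overlap either, at a log2 fold change of -0.93 (adjusted p 0.084), nor did those of Fscn1 (-1.71, adjusted p 0.105). Xcr1 went the other way, at 3.47, 4.10 and 4.09 CPM W/O IL-10 and 6.56, 4.66 and 6.44 CPM W/ IL-10. Its groups did not overlap (log2 fold change 0.6, adjusted p 0.184). Of the 7 tested markers, 4 lay lower W/ IL-10 without overlap and 2 higher, against 22.6% of all tested genes in either direction. The median of the 7 tested markers was -0.58. In edgeR 6 of the 7 had an unadjusted p under 0.05, in either direction, beside 14.7% of all tested genes. An adjusted p under 0.05 was reached by 1 in edgeR, 3 of the list in DESeq2 and 1 in limma-voom. In W/O IL-10 replicate 1, which had the least Ccr7 of its group, the list sum and Cd83 were the lowest of the group and Ccl22 the highest. With the mean log2 CPM of these markers as a covariate, also added after seeing the data, the log2 fold changes were -1.0 for Cxcr4, -0.84 for Gpr183 and -0.65 for Ccr7, their standard errors grew to 0.16, 0.18 and 0.24, and none passed (adjusted p 0.332, 0.851 and 0.955). In that fit edgeR called 0 of all tested genes, with 674 at an unadjusted p under 0.05, among them 3 of the 8 genes. Most of the 7 tested markers had groups that did not overlap, so group and marker level cannot be told apart in this fit. The part of dendritic cell RNA in the decreases was not tested. Macrophage and monocyte markers summed to 26.9 to 34.7 CPM W/O IL-10 and 31.1 to 34.4 CPM W/ IL-10, neutrophil markers to 2.52 to 8.33 and 1.62 to 2.92 CPM, and NK cell markers to 549 to 582 and 390.3 to 418 CPM. Most of the macrophage sum was Cd68, at 20.4 to 23.1 CPM W/O IL-10 and 25.8 to 29.4 CPM W/ IL-10. Cd14 (log2 fold change -0.56), Adgre1 (-0.6) and Lyz2 (-0.62) were lower W/ IL-10. None of the 4 tested macrophage markers passed, and their median was -0.58. Most of the NK cell sum was Eomes, which activated T cells also express. It stood at 498 to 539 CPM W/O IL-10 and 353 to 384 CPM W/ IL-10. Of the 5 NK cell markers, Ncr1 (log2 fold change -1.15, adjusted p 0.046) and Eomes (-0.51, adjusted p 0.0176) fell. The groups of Klrb1c (-0.27), Klra8 (0.38) and Klra4 (0.25) overlapped, and none of these passed the test. The part of the NK cell markers in the results was not tested.

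The genes whose levels ran most like those of the 3 that fell were sought among 9104 tested genes with a mean of at least 10 CPM, by Pearson correlation of log2 CPM over the 6 libraries, which is a description only, since points share a library and any gene that differs between the groups will correlate. Nearest to Cxcr4 were Tnfrsf1b (r = 0.999), which encodes TNF receptor 2, Rara (0.997), the retinoic acid receptor α, and Sft2d2 (0.997). Their log2 fold changes were -0.31, -0.26 and -0.53, each smaller than that of Cxcr4, and among these Sft2d2 had an adjusted p under 0.05 (0.0132). Nearest to Gpr183 were Ubqln4 (0.995), Arl5c (0.994) and Etv5 (0.994), of which Arl5c fell from a mean of 28.7 to 11.5 CPM (log2 fold change -1.32, adjusted p 0.00383) and Etv5, an ETS family transcription factor, from 15.7 to 10.4 CPM (-0.60, adjusted p 0.029). Nearest to Ccr7 were Eral1 (0.991), Psrc1 (0.990) and Sh2d2a (0.990), an adaptor of T cell receptor signaling, with log2 fold changes of -0.09, -0.17 and -0.27 that did not pass the test.

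Across the processing alternatives, the log2 fold change of Cxcr4 stayed between -1.0 and -0.82, that of Gpr183 between -0.89 and -0.76 and that of Ccr7 between -0.76 and -0.52. The adjusted p was under 0.05 in 15, 14 and 9 of 17 alternatives, respectively. For S1pr1, Klf2 and Klf3 the sign was kept in all 17 with no call in any.

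**Figure D5:**
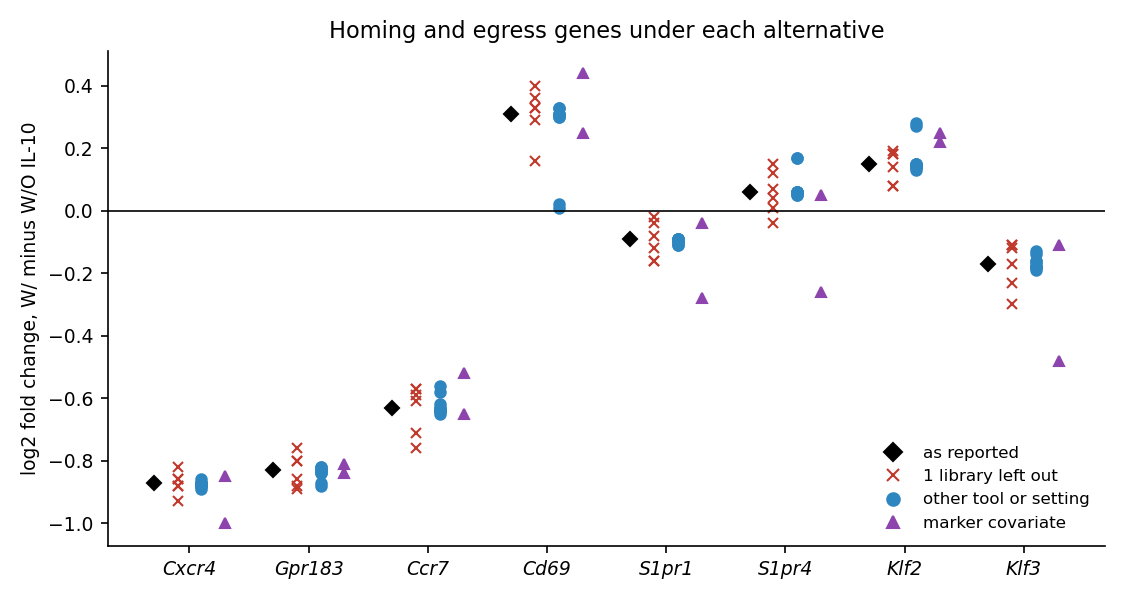
Log2 fold change, W/ minus W/O IL-10 (vertical axis), of the 8 genes as reported (black), with 1 library left out (red crosses), with another tool or setting (blue) and with a marker level as covariate (purple). Cxcr4, Gpr183 and Ccr7 stay below 0 throughout, S1pr4 crosses 0, and Cd69 ranges from 0.01 to 0.44.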

How the data were processed

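RNA was sequenced from cDNT after 24 h W/ IL-10 (50 ng/ml) and W/O IL-10, in 3 libraries per group. The authors deposited 1 table of whole-number counts for 29393 Ensembl genes, with no normalization. For its making, the study's methods name TopHat, Cufflinks, UCSC annotation and an NEBNext kit, whereas the submitters' processing notes and labels name HISAT2, HTSeq, GRCm38 and a TruSeq kit. Versions, annotation release and use of strand are not given in the sources used here. The labels' design text speaks of duplicates, while 3 libraries per group are listed, and all 6 were used. No pair of libraries held identical values.

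TMM factors (0.953 to 1.03) and the quasi-likelihood test were computed in edgeR 4.0.16 under R 4.3.3, on all 6 libraries and without a block. A gene was tested if 3 or more libraries had 10 or more counts, which left 14916. Genes passed at a fold change of at least 1.5 and an adjusted p-value under 0.05 (Benjamini-Hochberg over all tested genes). Standard errors are the log2 fold change divided by the square root of F. The CPM values use TMM-scaled library sizes, and the floor of 3 counts covers counting error only. Scripts were tested on simulated data.

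The 8 genes and all lists were chosen with earlier results of these data known. Named besides the 8 are genes of the 8 pathway lists with an adjusted p under 0.05, S1pr2, S1pr5, Klf4, Klf6, Klf7, Klf10, Klf13 and Foxo1, and the 3 genes most correlated with each of the 8 that passed. Cxcr5, Cd8a, Cd8b1, Cd4, Itgax, Ccl22, Cd83, Fscn1, Ncr1, Eomes, Clec9a and Siglech were named after their values were seen. So were Xcr1, H2-Ab1, Flt3, Ccl17, Klrb1c, Klra8, Klra4, Cd68, Cd14, Adgre1, Lyz2, Cd5, S1pr3, Klf1 and Klf12. Ccl19, Ccl21a, Ch25h, Hsd3b7, Klf17 and Cd209a were not analysed here. Results that need 1 further gene are not reported here, though counts and medians over whole lists include it.

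The alternatives were DESeq2 1.42.0, limma-voom (limma 3.58.1), upper-quartile normalization, no filter, at least 10 counts in every library, the replicate number as a block, a spline correction for GC content and length (5 degrees of freedom, with and without the block), a null fold change of 1.5 (glmTreat) and each library left out. B cell or dendritic cell marker level as a covariate was added after seeing the data. Coordinates are those of GENCODE release M21 (GRCm38), which held 29332 of the identifiers.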

Additional observations from a re-analysis of the deposited data

How the results depend on the processing

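The number of the 8 genes that passed was 3 as reported, and it was 0 against a null fold change of 1.5 (glmTreat, 2 at an unadjusted p under 0.05) and 0 with the dendritic cell covariate (3 unadjusted). It ranged from 1 (without W/ IL-10 replicate 3) to 3 when single libraries were left out, and the same values held at any fold change. With the GC and length correction 2 of the 8 passed, with or without the replicate block. At any fold change these were 2 without the block and 3 with it. Of all tested genes 217 passed as reported, 345 in DESeq2, 639 without a filter, 354 with the GC and length correction and the replicate block, 15 in glmTreat (330 unadjusted), 0 with the dendritic cell covariate (674 unadjusted), and 35 (without W/ IL-10 replicate 3) to 254 (without W/O IL-10 replicate 1) with a library left out. Of the pathway list genes 4 passed as reported, 9 without a filter, 0 in glmTreat (4 unadjusted), 0 with the dendritic cell covariate (8 unadjusted) and 1 to 6 with a library left out. The causes were not tested.

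Under glmTreat, Cxcr4 stood at -0.87 (adjusted p 0.27), Gpr183 at -0.83 (0.511) and Ccr7 at -0.63 (1). With the dendritic cell covariate they stood at -1.0, -0.84 and -0.65, and S1pr4 turned to -0.26. Ccr7 was at -0.58 with the GC and length correction (adjusted p 0.0505) and at -0.56 with the replicate block added to it (0.00558). Without a filter, Cd69 had an adjusted p of 0.0456 at 0.31, under the fold change of 1.5. With a library left out, Ccr7 ranged from -0.76 to -0.57, Cxcr4 from -0.93 to -0.82, Gpr183 from -0.89 to -0.76 and S1pr4 from -0.04 to 0.15. Signs also turned for S1pr2 (0.05 with the GC and length correction, with or without the block, 0.04 with the dendritic cell covariate, -0.09 to 0.01 with a library left out), Klf13 (-0.21 with the dendritic cell covariate, 0.05 to 0.22 with a library left out) and Klf10 (-0.19 to 0.00 with a library left out). Foxo1 (0.28, adjusted p 0.0462) and Klf13 (0.25, 0.0347) had an adjusted p under 0.05, under the fold change of 1.5, with the GC and length correction and the block. The median over all genes stayed between -0.01 and 0.06.

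The labels give both groups the replicate numbers 1 to 3. The deviations of same-numbered libraries correlated at 0.0524, -0.0573 and 0.114, against -0.0175 on average for different numbers, so the numbers were not taken as pairs. With the replicate block 196 of all genes passed, and Cxcr4 was at -0.87 (adjusted p 0.0084), Gpr183 at -0.82 (0.0155) and Ccr7 at -0.63 (0.0281).

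Klf3 and Klf2 had the fewest counts of the 8 genes, 217 to 312 and 259 to 320.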

Other observations

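Among the 8 genes, the levels of the 3 that fell ran together over the 6 libraries (log2 CPM, Pearson r 0.98 for Cxcr4 and Gpr183, 0.93 for Ccr7 with each of them), as genes that differ between the same groups do. Klf2 and Cd69 ran together as well (r = 0.88), though neither passed the test, while Klf2 and S1pr1 did not (r = 0.01) and Klf2 and Klf3 did not (r = -0.13). Both Klf2 and Cd69 were lowest in W/O IL-10 replicate 1 and highest in W/ IL-10 replicate 2. S1pr1 and Klf3 gave r = 0.75, and S1pr4 had no r above 0.24 with any of the others. Points share a library, 6 libraries are few, and the values are given as a description.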
